A study of Mus musculus with 21 samples.

Results

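The Schlafen (Slfn) genes were followed through RNA sequencing of 3 macrophage populations sorted from mouse kidneys. The 7 members are Slfn1, Slfn2, Slfn3, Slfn4, Slfn5, Slfn8 and Slfn9, taken by symbol from the table of estimated counts, which holds 34236 gene symbols and 10 symbols that begin with Slfn. The members were chosen by family with their measured levels and fold changes in these 21 libraries known, so their levels, fold changes and calls are given as a description and no p-value is given for any of them. Kidneys came from male C57BL/6J mice aged 24 weeks after renal artery stenosis (RAS), in which a tube cuff narrowed the artery of the right kidney, or after Sham surgery, in which the artery was exposed and not cuffed. Apart from the surgery the labels give no genetic change or agent to either group. F4/80-positive macrophages free of T cell, B cell, NK cell, granulocyte and erythrocyte markers were separated by CD11b and CD11c into kidney-resident macrophages (KRM, intermediate for both) and the monocyte-derived CD11chi and CD11clo macrophages (high for CD11b). The libraries numbered 3 for CD11chi Sham, 4 for CD11chi RAS, 3 for CD11clo Sham, 4 for CD11clo RAS, 4 for KRM Sham and 3 for KRM RAS, 21 in all. The labels do not say whether a library came from a single mouse or from pooled mice. A legend of the study gives as many mice as there are libraries for each Sham population, without tying mice to libraries, so the spread between libraries, and each p-value built on it, may be partly technical.

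Schlafen proteins are found in mammals in families that differ in number between species, and interferon raises the expression of many of them. In the mouse the short proteins Slfn1 and Slfn2 form the first group, the intermediate Slfn3 and Slfn4 the second, and the long Slfn5, Slfn8 and Slfn9 the third, which alone carries a helicase-like domain at its C-terminal end. Slfn2 is best known for keeping T cells and monocytes in a resting state, and Slfn4 for its expression in the myeloid lineage. Several of the genes are known to change as monocytes mature into macrophages.

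The 7 members lay side by side on mouse chromosome 11, from 82951349 to 83215154 of GRCm38, a stretch of 263.8 kb in which they were the 7 protein-coding genes among 22 annotated genes. Slfn5 opened the cluster on the plus strand, Slfn9 and Slfn8 followed on the minus strand with the pseudogene Slfn10-ps, and Slfn2, Slfn1, Slfn4 and Slfn3 followed on the plus strand. The order along the chromosome therefore kept the long members apart from the short and intermediate ones. Stretches of 80 bases upstream of each RefSeq start, from the RefSeq promoter windows of GRCm38.p6, are shown because the long and the shorter members carried different short sequences there. For Slfn5 the stretch lies inside the gene as annotated above, which begins at 82951349. All stretches are written in the direction of the gene. For the long members the capitals mark the letters GAAANNGAAA of the interferon-stimulated response element (ISRE) on either strand, to which Stat2 and Irf9 bind as parts of a complex.
Slfn5, chr11:82951927-82952006, plus strand: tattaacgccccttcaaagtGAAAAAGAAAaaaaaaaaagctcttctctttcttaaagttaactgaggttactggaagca
Slfn9, chr11:82991831-82991910, minus strand: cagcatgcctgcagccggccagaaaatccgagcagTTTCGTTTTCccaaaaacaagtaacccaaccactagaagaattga
Slfn8, chr11:83020811-83020890, minus strand: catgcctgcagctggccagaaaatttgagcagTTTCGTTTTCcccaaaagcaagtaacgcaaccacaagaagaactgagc

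For the short and intermediate members the capitals mark the longest run of letters that their windows had in common.
Slfn2, chr11:83065032-83065111, plus strand: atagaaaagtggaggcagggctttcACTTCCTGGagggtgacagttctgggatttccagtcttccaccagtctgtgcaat
Slfn1, chr11:83116726-83116805, plus strand: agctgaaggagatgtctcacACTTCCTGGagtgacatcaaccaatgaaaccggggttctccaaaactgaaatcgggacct
Slfn4, chr11:83175093-83175172, plus strand: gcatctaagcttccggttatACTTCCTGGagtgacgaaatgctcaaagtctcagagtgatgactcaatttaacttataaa
Slfn3, chr11:83191250-83191329, plus strand: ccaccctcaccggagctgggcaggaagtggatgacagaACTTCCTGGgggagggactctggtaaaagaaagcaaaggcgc

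The ISRE letters were searched on both strands of the 300-base windows around each start, and 3.44% of 32851 such windows held them. They began 155 bases before the start of Slfn5, 45 before that of Slfn9 and 48 before that of Slfn8, and the windows of Slfn1, Slfn2, Slfn3 and Slfn4 held none. Slfn8 had a second window, around another start, in which the same letters began 136 bases before that start. The run ACTTCCTGG stood 55, 74, 73 and 42 bases before the starts of Slfn2, Slfn1, Slfn4 and Slfn3, was held by 0.843% of the windows and was not found in those of Slfn5, Slfn8 and Slfn9. Its reverse complement, CCAGGAAGT, holds the core letters that ETS family factors bind. That run was picked out after the windows had been seen, and genes that arose by duplication share sequence by descent, so it is a description. The GAS letters TTCNNNGAA, held by 8.3% of the windows, and the PU.1 box GAGGAAGT, held by 3.2%, occurred in no member's window. Slfn8 and Slfn9 matched at 252 of the 300 bases of their windows, 84%, against 55.7% to 62.3% for every other pair of members.

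**Figure D1:**
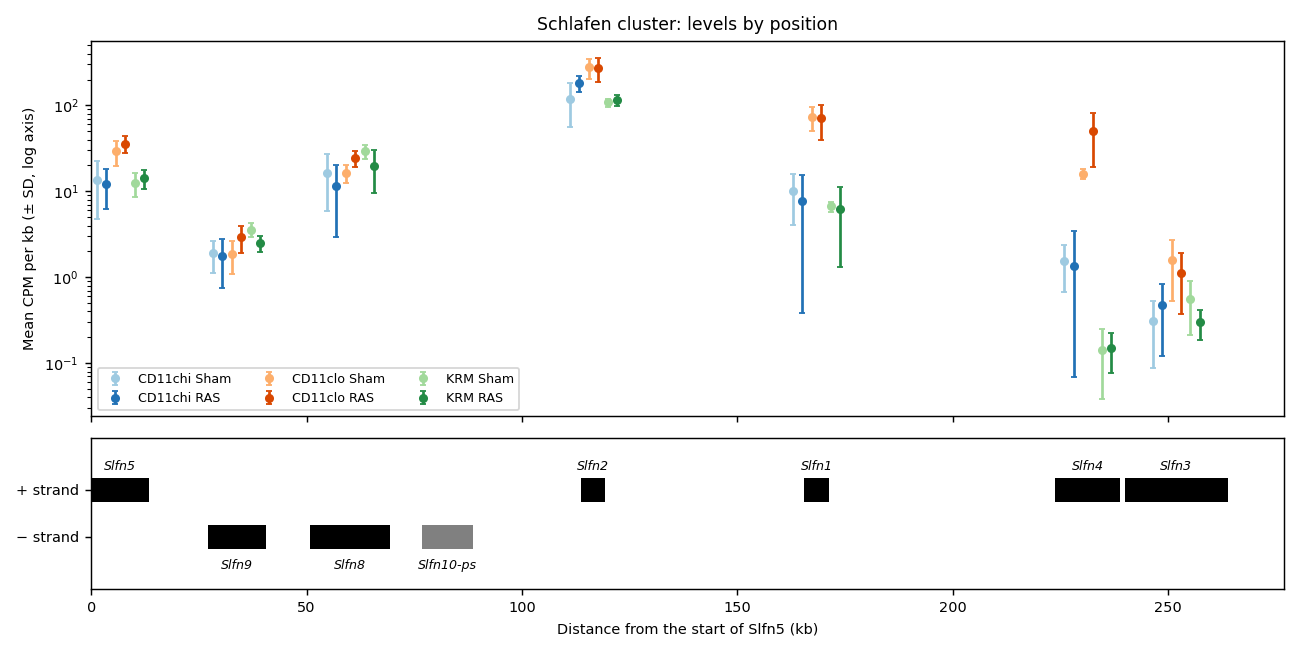
The upper panel plots the mean level of each member, in CPM (counts scaled to the same library total) per kb of exon with its SD on a log axis, at the gene's distance in kb from the start of Slfn5, for the 6 groups side by side. The lower panel maps the members (black) and Slfn10-ps (grey) by strand; where the SD exceeded 95% of the mean the lower bar stops at 5% of the mean. Slfn2 stands highest in every group, and the groups spread most at Slfn4, from 0.144 in KRM Sham to 50.1 in CD11clo RAS.

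Total counts ran from 6891177 to 18592427 per library with a median of 9357851, and no pair of libraries within a group agreed within sampling noise. Some pairs were far closer than others. By chi-square per gene, CD11chi RAS replicates 3 and 4 stood at 5.13, against 94.3 to 128 for the other pairs of that group. KRM RAS replicates 2 and 3 stood at 10.1, against 107 and 136 for the pairs with replicate 1. Whether the libraries of a close pair came from different mice is not given. The macrophage markers were all detected in every group, Ly6g, which defines neutrophils, was at 0 in all CD11chi and KRM libraries and reached at most 0.45 CPM in CD11clo, and the 10 classical monocyte markers summed to 4138 to 18645 CPM in CD11clo libraries against 586 to 3305 in the others. CD11clo libraries also held 909 to 3675 CPM of the neutrophil list, which shares S100a8 with the monocyte list, against 13.4 to 341 elsewhere. Itgax, which encodes CD11c, was highest in CD11chi RAS at 365 to 926 CPM, lowest in CD11clo at 8.45 to 58.5, and in KRM Sham at 348 to 431 CPM was not below CD11chi Sham at 116 to 376. Libraries stood apart in 3 ways. Proximal tubule markers summed to 14426, 5013 and 2139 CPM in the third Sham libraries of CD11chi, CD11clo and KRM, against at most 1301 in any other. KRM RAS replicate 1 held 511 CPM of T and NK cell markers and 3002 of B and plasma cell markers, against at most 74.1 and 509 in the other KRM RAS libraries, and its column in the second deposited table correlated with its counts at only 0.671, where the other libraries reached 0.895 to 0.935 with their own. That column correlated best, at 0.76, with the counts of CD11chi RAS replicate 2, and the columns of KRM Sham replicates 2 and 4 matched the counts of KRM Sham replicate 1 slightly better than their own. Whether the KRM RAS column in the second table or the one in the count table is mislabelled could not be settled, so the values for KRM RAS rest on a library in doubt, by edgeR and DESeq2 through its counts and by limma through the second table. CD11chi RAS replicates 1 and 2 held 2274 and 4588 CPM of the B and plasma cell list, against 803 and 894 in replicates 3 and 4. The part of these RNAs in the Schlafen levels was not tested, and the larger moves of called members and counts without such a library are given beside the result, while the gene lists are given with all libraries. In bulk libraries a smaller share of expressing cells and less RNA in each cell cannot be told apart.

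Levels are given first, as CPM with libraries scaled against each other by TMM, a trimmed mean of ratios, for the members in order of their structural groups. The plot of levels by library shows each value.

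**Figure D2:**
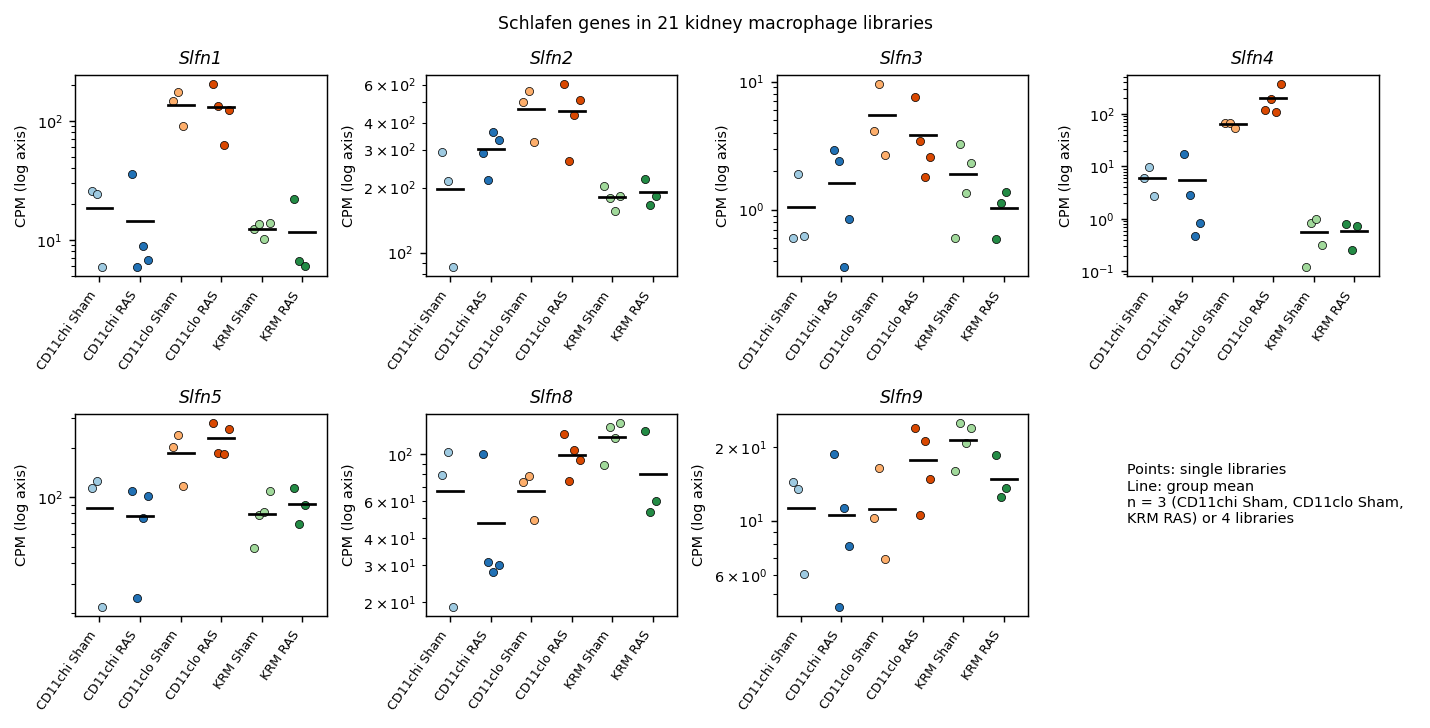
Each panel plots 1 Schlafen gene, with the CPM of single libraries on a log axis as points and the group mean as a line, for CD11chi, CD11clo and KRM from Sham and RAS kidneys. Slfn1 and Slfn4 separate all CD11clo libraries from all others, whereas Slfn8 and Slfn9 have their highest mean in KRM Sham, at 120 and 21.4 CPM.

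Slfn1, a short member first described as a brake on T cell growth, was a gene of the CD11clo macrophages. Its levels were 146, 175 and 90.3 CPM in CD11clo Sham and 206, 135, 62.7 and 124 CPM in CD11clo RAS. In CD11chi Sham they were 25.9, 24.1 and 5.91 CPM and in CD11chi RAS 35.9, 5.87, 8.87 and 6.80 CPM. Each of the 7 CD11clo libraries was above each of the 14 others, and CD11chi RAS replicate 1 was the highest library outside CD11clo. KRM Sham libraries held 12.3, 13.6, 10.1 and 13.8 CPM and KRM RAS libraries 22.1, 6.61 and 6.05 CPM. The 4 KRM Sham libraries lay close together, and in KRM RAS it was replicate 1, the library with the lymphocyte markers, that stood highest.

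Slfn2, the short member linked to quiescence of T cells and monocytes, had the highest level per kb of exon of the 7 members in each of the 21 libraries. In CD11clo Sham it reached 496, 559 and 326 CPM and in CD11clo RAS 605, 266, 433 and 507 CPM. CD11chi libraries held 291, 215 and 85.6 CPM after Sham surgery and 288, 218, 363 and 332 CPM after RAS. The CD11chi RAS range reached into that of CD11clo RAS, while CD11chi Sham replicate 3, the library richest in tubule markers, was the lowest of all 21. KRM held 203, 180.0, 155 and 184 CPM after Sham surgery and 220.0, 166 and 184 CPM after RAS, so the 7 KRM libraries all lay below the 7 CD11clo libraries.

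Slfn3, an intermediate member, was close to the limit of detection, with 3 to 83 counts per library. The highest values were in CD11clo Sham, at 4.14, 9.63 and 2.65 CPM, and in CD11clo RAS, at 7.62, 3.46, 1.81 and 2.56 CPM. CD11chi libraries held 0.60, 1.91 and 0.63 CPM after Sham surgery and 2.91, 2.38, 0.35 and 0.85 CPM after RAS. KRM libraries held 0.60, 3.28, 1.35 and 2.30 CPM after Sham surgery and 0.59, 1.13 and 1.38 CPM after RAS. Its CD11clo and KRM Sham values overlapped, and the difference seen for Slfn1 was not as clear at this depth.

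Slfn4, the intermediate member of the myeloid lineage, spread most widely between the populations. CD11clo Sham libraries held 68.1, 67.6 and 53.9 CPM and CD11clo RAS libraries 120, 188, 111 and 376 CPM. All 4 CD11clo RAS libraries were above all 3 CD11clo Sham libraries, and replicate 4 stood well above the other three. In CD11chi, Slfn4 stood at 5.90, 9.57 and 2.76 CPM after Sham surgery and at 17.5, 2.86, 0.47 and 0.85 CPM after RAS. KRM Sham libraries held 0.12, 0.85, 1.00 and 0.31 CPM, that is 1, 8, 20 and 3 counts, and KRM RAS libraries 0.79, 0.26 and 0.73 CPM, that is 8, 3 and 8 counts. Slfn4 was therefore barely detected in KRM, and a level of 3 counts or fewer cannot be read as expression at this depth.

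Slfn5, the first of the long members and a repressor of interferon-driven transcription in other cells, was again highest in CD11clo macrophages. It reached 202, 237 and 117 CPM in CD11clo Sham and 281, 184, 183 and 260 CPM in CD11clo RAS. CD11chi libraries held 113, 125 and 21.7 CPM after Sham surgery and 109, 24.6, 74.4 and 101 CPM after RAS. KRM held 49.2, 77.6, 81.1 and 108 CPM after Sham surgery and 114, 68.6 and 89.4 CPM after RAS. The CD11clo RAS libraries lay above every CD11chi and KRM library, and CD11clo Sham replicate 3 at 117 CPM was below the highest CD11chi library. The antisense gene Slfn5os overlaps Slfn5 and was not analysed here; the strand setting of the counting was not given, so reads of the pair cannot be told apart.

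Slfn8 and Slfn9, long members without a settled function in macrophages, had another order of groups. Slfn8 was highest in KRM Sham, at 89.1, 134, 119 and 140 CPM, and stood at 129, 53.1 and 60.3 CPM in KRM RAS. CD11clo libraries held 73.5, 79.0 and 48.9 CPM after Sham surgery and 124, 74.8, 104 and 93.2 CPM after RAS, and CD11chi libraries 79.1, 102 and 19.1 CPM and then 100, 31.0, 27.8 and 30.1 CPM. Among KRM RAS libraries it was again replicate 1 that was as high as the Sham libraries, and the other pair lay below all of them. Slfn9 followed at a lower level, with 15.9, 25.1, 20.8 and 24.0 CPM in KRM Sham and 18.5, 12.4 and 13.6 CPM in KRM RAS. CD11clo held 10.2, 16.4 and 6.97 CPM of Slfn9 after Sham surgery and 24.0, 10.5, 21.3 and 14.9 CPM after RAS, and CD11chi held 14.4, 13.5 and 6.03 CPM and then 18.7, 4.44, 11.2 and 7.90 CPM. Of the stretches of 75 bases in their transcripts, 6.99% for Slfn8 and 5.9% for Slfn9 also occurred in another family transcript, most often that of Slfn10-ps, so a small part of their counts may have been split between them. The shares for Slfn4, Slfn2 and Slfn3 were 1.78%, 1.7% and 1.32%.

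When the 6 groups were ordered by mean level for each gene, 31 of 35 neighbouring pairs had overlapping ranges. The 4 separated steps were those below CD11clo RAS and CD11clo Sham for Slfn4, below CD11clo RAS for Slfn1 and below CD11clo Sham for Slfn5. The summed CPM of the family was 930 ± 256 (SD, n = 3) in CD11clo Sham and 1131 ± 280 (SD, n = 4) in CD11clo RAS. It was 388 ± 214 (n = 3) and 457 ± 120 (n = 4) in CD11chi Sham and RAS, and 416 ± 46.0 (n = 4) and 389 ± 102 (n = 3) in KRM Sham and RAS. Per kb of exon, Slfn2 made up 59.0% to 84.3% of the family's summed level in every group. The rest was made up differently, since Slfn1 gave 17.5% in CD11clo Sham against 4.12% in KRM Sham, whereas Slfn8 gave 18.2% in KRM Sham against 3.98% in CD11clo Sham. Slfn4 gave 3.96% in CD11clo Sham, 11.2% in CD11clo RAS and 0.09% in both KRM groups.

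**Figure D3:**
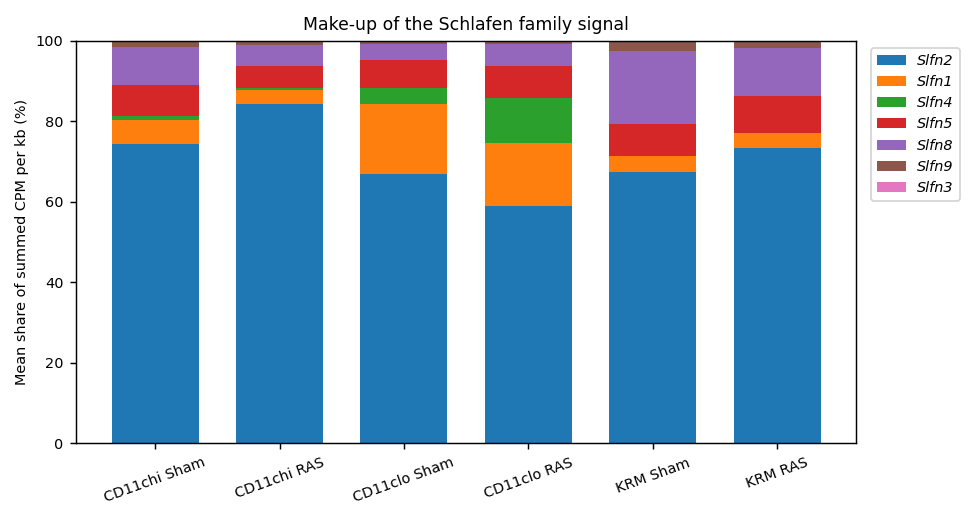
Stacked bars give the mean share, in %, of each Schlafen gene in the family's summed CPM per kb of exon for the 6 groups. Slfn2 is the largest part of every bar, Slfn1 and Slfn4 are widest in CD11clo, and Slfn8 is widest in KRM Sham at 18.2%.

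In Sham kidneys the resident KRM and the CD11clo macrophages were compared first, as the pair farthest apart. Slfn1, Slfn2, Slfn4 and Slfn5 were lower in every KRM library than in every CD11clo library, and Slfn8 was higher in every one. On the log2 scale of edgeR, the difference KRM minus CD11clo was -3.50 (SE 0.24) for Slfn1, -1.38 (SE 0.20) for Slfn2, -1.26 (SE 0.30) for Slfn5, 0.81 (SE 0.22) for Slfn8 and 0.91 (SE 0.32) for Slfn9. The fitted value for Slfn4, -6.65 (SE 0.46), depends on the prior count. In counts pooled over the libraries of each group and scaled to their summed TMM library sizes, CD11clo exceeded KRM 93.6-fold. The 95% counting interval of 66.0 to 137 covers counting error only. KRM Sham replicate 3, the deepest library, gave 20 of the 32 pooled KRM counts. In the second deposited table limma gave a smaller difference for Slfn4, -4.31 (SE 0.21). Slfn3, at -1.57 (SE 0.64), was the member not called. In this comparison 6 of 7 members passed an adjusted p of 0.05, where 41.9% of all genes tested did, and 5 of 7 did not overlap, where 43.5% of genes did not. With the replicate number as a block Slfn9 was lost and 5 members were called. Without the third Sham libraries, rich in tubule RNA, the differences were -3.64 for Slfn1, -7.27 for Slfn4 and 0.63 for Slfn8. The monocyte list, which moved with Slfn1 and Slfn4, summed to 7109 to 18645 CPM in CD11clo Sham and 586 to 882 in KRM Sham, and its part was not tested.

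CD11chi macrophages in Sham kidneys lay between or beside the others, depending on the gene. Against CD11clo, all 3 CD11chi libraries were lower for Slfn1, Slfn2, Slfn3 and Slfn4, with log2 differences of -2.84 (SE 0.56), -1.18 (SE 0.44), -2.30 (SE 0.73) and -3.32 (SE 0.43). Only Slfn4 of the 7 members was called, where 1.52% of genes were, and 4 of 7 did not overlap, where 24.3% of genes did not. Slfn8 and Slfn9 showed differences of 0.03 (SE 0.54) and 0.07 (SE 0.45) between these monocyte-derived populations. The replicate block added Slfn1, for 2 members called, and without the third Sham libraries 4 were called, namely Slfn1, Slfn2, Slfn4 and Slfn5. Leaving out any single library except CD11chi Sham replicate 3 left 0 members called, and leaving out that one left 2.

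Between KRM and CD11chi from Sham kidneys, Slfn4 was lower in all KRM libraries and Slfn9 higher in all of them. The log2 differences were -3.35 (SE 0.70) for Slfn4 and 0.88 (SE 0.32) for Slfn9. The pooled and scaled counts of Slfn4 were 9.25-fold higher in CD11chi, with a counting interval of 6.31 to 13.9. Without the third Sham libraries the difference for Slfn4 was -4.13 (SE 0.62). Slfn1, Slfn2 and Slfn5 differed by -0.62 (SE 0.44), -0.16 (SE 0.35) and -0.15 (SE 0.53), within the spread of the libraries. Of 7 members 1 was called, Slfn4, where 5.13% of genes were, and 2 did not overlap, where 22.6% of genes did not. The call rested on its setting, since the replicate block and every fit without 1 library gave 0 members, except the fit without CD11chi Sham replicate 3, which gave 2, Slfn1 and Slfn4.

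In RAS kidneys Slfn1, Slfn2, Slfn3, Slfn4 and Slfn5 were lower in every KRM library than in every CD11clo library. The log2 differences were -3.48 (SE 0.61) for Slfn1, -1.21 (SE 0.29) for Slfn2, -1.84 (SE 0.67) for Slfn3 and -1.29 (SE 0.25) for Slfn5. Slfn4 had a fitted difference of -8.35 (SE 0.74), and its pooled and scaled counts were 332-fold higher in CD11clo, with a counting interval of 213 to 552. Limma on the second table gave -5.91 (SE 0.46), and -6.08 (SE 0.46) without KRM RAS replicate 1. Slfn8 and Slfn9, higher in KRM than in CD11clo after Sham surgery, differed here by -0.26 (SE 0.32) and -0.20 (SE 0.31) and overlapped. Of 7 members 4 were called, where 9.17% of genes were, and 5 did not overlap, where 29.2% of genes did not. The calls depended on few libraries, with 0 left without KRM RAS replicate 2 or 3, 1 without CD11clo RAS replicate 2 or 4, 2 without CD11clo RAS replicate 1 and 5, with Slfn8 lower in KRM, without KRM RAS replicate 1. In that last fit the difference for Slfn1 was -4.34 (SE 0.53), and the count over all genes rose from 1208 to 3239.

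CD11chi from RAS kidneys likewise held less Slfn1, Slfn4 and Slfn5 than CD11clo in every library, by -3.19 (SE 0.63), -5.16 (SE 1.02) and -1.57 (SE 0.40) on the log2 scale. Slfn2 differed by -0.60 (SE 0.28) and Slfn8 by -1.07 (SE 0.42), with overlapping groups. Those 3 of 7 members were called, where 8.27% of genes were, and the same 3 did not overlap, where 15% of genes did not. The count fell to 0 without CD11chi RAS replicate 4 or CD11clo RAS replicate 4 and to 1 without CD11chi RAS replicate 3 or CD11clo RAS replicate 2, and it rose to 4 without CD11chi RAS replicate 1, where the differences were -7.21 (SE 0.77) for Slfn4 and -4.19 (SE 0.43) for Slfn1.

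KRM and CD11chi from RAS kidneys overlapped for each member. Slfn4 did not pass the filter on low counts there, and edgeR called 0 of the other 6, where 9.23% of genes were called and 25.5% did not overlap. At an unadjusted p under 0.05 the count was 1, and DESeq2 and limma also called 0. Slfn8 had the largest of the 6 fitted differences, 0.82 (SE 0.52), and without CD11chi RAS replicate 1 it was 1.53 (SE 0.35) and called, while the count over all genes rose from 1221 to 2291. Slfn1 changed sign with the library left out, from -0.26 to 0.78 (SE 0.56) without CD11chi RAS replicate 1 and -1.13 (SE 0.78) without KRM RAS replicate 1. The pooled and scaled counts of Slfn4 were 11.01-fold higher in CD11chi, with a counting interval of 6.88 to 18.6. CD11chi RAS replicate 1 gave 187 of the 216 pooled CD11chi counts.

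**Figure D4:**
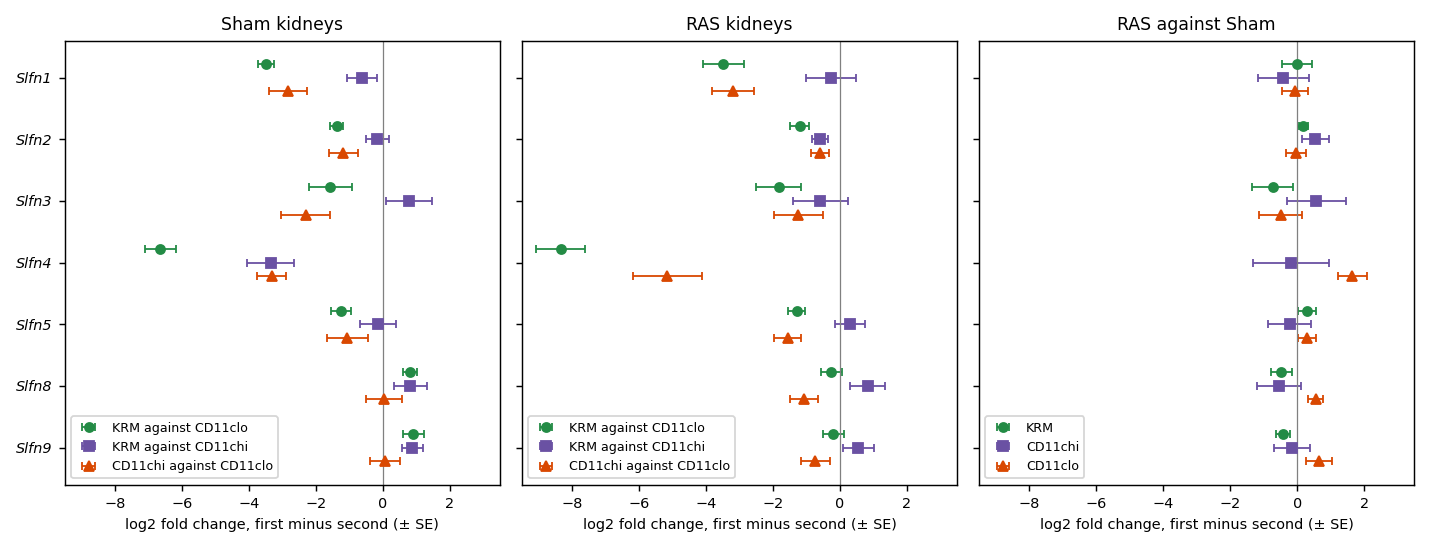
Points give the log2 fold change of each Schlafen gene in edgeR with its SE as a bar, for the 3 pairs of populations in Sham kidneys (left) and in RAS kidneys (middle) and for RAS against Sham within each population (right). Slfn1 to Slfn5 lie left of 0 for both comparisons with CD11clo, and the RAS against Sham values lie nearer 0, apart from Slfn4 in CD11clo at 1.64.

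RAS was then compared with Sham within each population. In CD11clo macrophages Slfn4 was higher in all 4 RAS libraries than in all 3 Sham libraries, at a mean of 199 ± 123 (SD) against 63.2 ± 8.08 CPM, a log2 difference of 1.64 (SE 0.43). Slfn8 and Slfn9 differed by 0.56 (SE 0.23) and 0.66 (SE 0.39), and Slfn1, Slfn2 and Slfn5 by -0.06 (SE 0.38), -0.03 (SE 0.30) and 0.29 (SE 0.27), all with overlapping groups. None of the 7 members was called by edgeR, where 0% of the genes tested were, 2 had an unadjusted p under 0.05, DESeq2 called 1, Slfn4, and limma called 0. The share of genes whose groups did not overlap was 7.9%. Beside this, the neutrophil list summed to 909 to 2073 CPM in CD11clo Sham and 1957 to 3675 in CD11clo RAS, the monocyte list fell from a median of 14515 to 8852 CPM, and T and NK cell markers reached 16.4 to 70.4 CPM after RAS against 4.35 to 8.52. Their part in the Slfn4 difference was not tested.

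In KRM edgeR called no member between RAS and Sham. The log2 differences were -0.74 (SE 0.62) for Slfn3, -0.48 (SE 0.31) for Slfn8 and -0.43 (SE 0.22) for Slfn9, and those of Slfn1, Slfn2 and Slfn5 were -0.01 (SE 0.45), 0.18 (SE 0.14) and 0.30 (SE 0.27). The groups overlapped for every member, where 27.2% of genes did not. Slfn4 did not pass the filter, and edgeR called 0 of the other 6, where 9.7% of genes were called, 0 had an unadjusted p under 0.05, DESeq2 called 0 and limma called 2. Without KRM RAS replicate 1, the library rich in lymphocyte markers, 3 members were called lower after RAS, Slfn1 at -0.90 (SE 0.22), Slfn8 at -1.01 (SE 0.19) and Slfn9 at -0.65 (SE 0.22), and the count over all genes rose from 1247 to 7071. Leaving out KRM RAS replicate 2 or 3 left 0 members called. The dissociation stress list, of genes such as Fos and Hspa1b that rise when tissue is digested, summed to 31591 to 48826 CPM in KRM Sham and 22390 to 26293 in KRM RAS. Of that sum Hspa1b averaged 11268 CPM in KRM Sham and 3652 in KRM RAS, while the listed genes Ier3 and Nr4a1 rose after RAS. The part of this list in the Slfn8 and Slfn9 values was not tested.

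In CD11chi the groups overlapped for every member, where 6.62% of genes did not. The differences ran from -0.55 (SE 0.65) for Slfn8 to 0.57 (SE 0.89) for Slfn3, each smaller than its SE, apart from Slfn2 at 0.54 (SE 0.41). Here edgeR called 0 of 7 members and 0% of genes, 0 members had an unadjusted p under 0.05, and DESeq2 and limma called 0. Without CD11chi RAS replicate 1, the highest library of its group for Slfn1, Slfn4 and Slfn8, the differences were -2.20 (SE 0.83) for Slfn4, -1.46 (SE 0.56) for Slfn1 and -1.25 (SE 0.54) for Slfn8, with 0 members and 39 genes called.

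The response to RAS was compared between populations by an interaction term. Between KRM and CD11clo the difference of responses was -1.07 (SE 0.43) for Slfn8, -1.12 (SE 0.48) for Slfn9 and -1.71 (SE 0.85) for Slfn4, with values of 0.02 (SE 0.64) for Slfn1 and -0.03 (SE 0.43) for Slfn5. None of the 7 members was called by edgeR, where 0.245% of genes were, 2 had an unadjusted p under 0.05, DESeq2 called 0 and limma 1. Without KRM RAS replicate 1 the value for Slfn8 was -1.595 (SE 0.35) and that member was called, while the count over all genes rose from 34 to 2360, and the value for Slfn1 was -0.86 (SE 0.53). Between KRM and CD11chi, and between CD11chi and CD11clo, edgeR called 0 of 7 members and 0% of genes, and no member had an unadjusted p under 0.05 or was called by DESeq2 or limma. Over all genes the count depended on the tool, with 1221 genes called by DESeq2 and 141 by limma for KRM and CD11chi, 15 and 0 for CD11chi and CD11clo, and 1419 and 1461 for KRM and CD11clo. At an unadjusted p under 0.05 edgeR held 2998, 900 and 3289 genes. These interactions share libraries with the comparisons above.

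The members moved together in part, as Pearson's r of log2 CPM over the 21 libraries shows. The closest pairs were Slfn1 with Slfn4 at 0.90, Slfn8 with Slfn9 at 0.87 and Slfn1 with Slfn5 at 0.84, while Slfn4 and Slfn9 stood at -0.01. After the mean of each group was subtracted, Slfn1 and Slfn8 reached 0.87, Slfn5 and Slfn9 0.80, and Slfn2 and Slfn4 fell to 0.02. The first set of values includes the difference between populations, and the second the spread between libraries of a group, in which the part of depth, tubule RNA or other cells was not tested. Over the same 21 libraries Slfn1 and Slfn4 followed the summed classical monocyte list at 0.92 and 0.90 and the neutrophil list at 0.89 and 0.88, Slfn8 and Slfn9 the macrophage identity list at 0.76 and 0.70 and the dissociation stress list at 0.71 and 0.72, and Slfn2 and Slfn5 the interferon response list at 0.90 and 0.87. Slfn1 also stood at 0.855 with the interferon response list and Slfn2 at 0.84 with the monocyte list. With the interferon response list Slfn4 and Slfn3 stood at 0.716 and 0.596, and Slfn8 and Slfn9 were lowest, at 0.457 and 0.337.

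**Figure D5:**
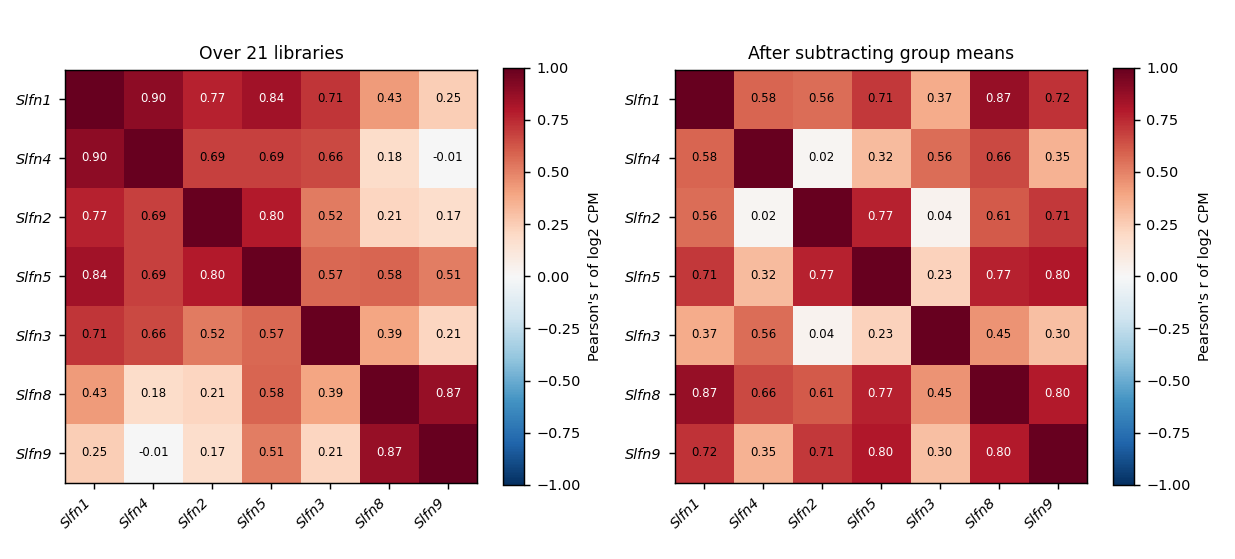
Colour and number give Pearson's r of log2 CPM between each pair of Schlafen genes, over 21 libraries (left) and after subtracting the mean of each of the 6 groups (right). At left Slfn1 and Slfn4 (0.90) and Slfn8 and Slfn9 (0.87) form the closest pairs; at right Slfn8 is closest to Slfn1 (0.87), then to Slfn9 (0.80).

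The genes most like each member were sought among 8888 genes with a mean log2 CPM of at least 3. For Slfn1 they were Pstpip2, Mocs1 and the monocyte antigen gene Ly6c2, with r of 0.97, 0.96 and 0.96, and for Slfn4 the gelatinase gene Mmp9 and the monocyte genes F13a1 and Hp, at 0.96, 0.95 and 0.94. Slfn2 was closest to the nucleic acid sensor gene Zbp1 (0.92), Ensa and Capza1, and Slfn5 to Lats2 (0.96), a kinase of the Hippo pathway, Wdr48 and Usp25. Slfn8 was closest to the diacylglycerol kinase gene Dgkh (0.96), Ip6k1 and Rtp4. Slfn9 was closest to the interferon-induced GTPase gene Irgm2 (0.92), the RNA sensor gene Ifih1 (0.92) and Pot1a, and Slfn3 to Zbed4, P2ry14 and Notch1, at 0.80 to 0.83. By Spearman's rho at most 1 of the 3 genes stayed among the top 3 for a member, and each rests on 21 libraries that share 6 groups.

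Since interferon raises several Schlafen genes, 42 interferon response genes were read in the same fits, by edgeR's quasi-likelihood test with Benjamini-Hochberg adjustment. Between KRM and CD11clo from Sham kidneys 9 were higher and 12 lower in KRM, where 41.9% of all genes were called. The median log2 difference was -0.06 against -0.04 over all genes. Ifitm3, a restriction factor at membranes, was lower at 287 ± 70.4 (SD, n = 4) against 1714 ± 90.8 CPM (n = 3), by 2.60 on the log2 scale (edgeR adjusted p = 3.21e-05), and the RNA-sensing oligoadenylate synthetase gene Oas1g was higher, by 2.32 (adjusted p = 1.66e-05). Members of the list lay on both sides, as genes did in general, with 22.1% of all genes higher and 21.4% lower in every KRM library. Irf7, the factor that amplifies the interferon response, was lower by -1.18 (adjusted p = 0.00136 in edgeR), and the receptor gene Ifnar2 was higher by 1.25 (adjusted p = 0.000125). Against CD11chi from Sham kidneys Oas1g was the only listed gene called, at 1.19 (edgeR adjusted p = 0.0366), where 5.13% of all genes were. Between CD11chi and CD11clo edgeR called 0 of the 42, with 7 at an unadjusted p under 0.05, where 1.52% of all genes were called.

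In RAS kidneys the interferon response genes were lower in KRM than in CD11clo for 8 of 42 and higher for 0, where 9.17% of all genes were called. The median was -0.57 against 0.06 over all genes. For CD11chi against CD11clo 6 were lower and 0 higher, where 8.27% of all genes were called. The median was -0.72 against 0.01, and Irf7 stood at -1.85 (edgeR adjusted p = 0.0184). KRM against CD11chi gave 1 higher and 1 lower, where 9.23% of all genes were called. For RAS against Sham in KRM 4 were higher and 0 lower, where 9.7% of all genes were called. Gbp2, an interferon-induced GTPase gene, stood at 1.32 (edgeR adjusted p = 0.0178), and the list median was -0.13 against 0.02 over all genes. In CD11clo edgeR called 0 of 42, with 8 at an unadjusted p under 0.05, though 39 of the 42 had a positive difference and the median was 0.40 against -0.03 over all genes. Over all genes edgeR likewise called 0 there, 1102 had an unadjusted p under 0.05, and DESeq2 called 107. In CD11chi edgeR called 0 of the 42 and 0% of all genes, with 2 of the list at an unadjusted p under 0.05. Ifnb1, the interferon beta gene, averaged 27.2 ± 27.1 CPM (SD, n = 4) in KRM Sham and 1.39 ± 0.88 (n = 3) in KRM RAS, a difference of -4.17 that was not called (edgeR adjusted p = 0.0621). Stat2 and Irf9 were not called between RAS and Sham in any population, and the smaller of their adjusted p values in edgeR for KRM was 0.0809, for Irf9.

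The interferon signalling list holds 27 genes of sensors, receptors and their kinases. Between KRM and CD11clo from Sham kidneys 7 of the 25 tested were higher and 6 lower, where 41.9% of all genes were called. The list median was 0.08 against -0.04 over all genes, and the RNA sensor gene Tlr3 stood at 2.89 (edgeR adjusted p = 0.000339). After RAS 0 were higher and 2 lower, Jak2 at -1.50 and Jak1 at -0.84 (edgeR adjusted p = 0.0392 and 0.0453), where 9.17% of all genes were called. In CD11chi against CD11clo after RAS 1 was higher and 0 lower, where 8.27% of all genes were called. A list of 20 genes raised by lipopolysaccharide through NF-kB was read because such signals also raise Slfn2 and Slfn4 in macrophages. In KRM against CD11clo from Sham kidneys 4 were higher and 10 lower, where 41.9% of all genes were called. The list median was -0.82 against -0.04 over all genes, and Il6, an inflammatory cytokine gene, was lower by 5.61 (edgeR adjusted p = 0.000299). In KRM 6 of the 19 tested were higher and 1 lower after RAS, where 9.7% of all genes were called, with the cytokine gene Il1a at 4.45 (edgeR adjusted p = 0.0021). The list median was 0.77 in KRM, 0.78 in CD11chi and 0.60 in CD11clo, against 0.02, -0.09 and -0.03 over all genes. In CD11chi and CD11clo 16 and 15 of 20 listed genes had a positive difference, and edgeR called 0 of them and 0% of all genes. The 14 dissociation stress genes gave 3 higher and 5 lower in KRM against CD11clo from Sham kidneys, where 41.9% of all genes were called. In KRM after RAS 2 were higher, Ier3 at 3.64 and Nr4a1 at 2.43 (edgeR adjusted p = 0.0254 and 0.0278). There 3 were lower, among them Hspa1b at -1.53 (edgeR adjusted p = 0.0408), where 9.7% of all genes were called. The list median after RAS in KRM was -0.04 against 0.02 over all genes.

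Of the other genes in the cluster, Slfn10-ps, a transcribed pseudogene, had the most counts. It held 1.13 to 8.75 CPM, and its means after RAS and Sham surgery were 5.86 and 2.74 CPM in KRM, 4.77 and 1.88 in CD11chi and 7.06 and 3.09 in CD11clo. All 4 CD11clo RAS libraries were above all 3 CD11clo Sham libraries, and the log2 differences of 1.20, 1.26 and 1.18 were not called (edgeR adjusted p = 0.111, 0.511 and 0.553). Slfn14-ps had 4 counts and Slfnl1 1 count over all 21 libraries. Among the nearest protein-coding neighbours on both sides, Rad51d and Slfn14 were not analysed here, and Fndc8, Gas2l2, Rasl10b and Unc45b reached at most 1, 1, 5 and 24 counts in a library. Group means ran from 12.5 to 34.1 CPM for Rffl, 4.58 to 10.7 for Nle1 and 62.8 to 85.1 for Ap2b1. The group means of Slfn1 ran from 11.6 to 137 CPM and those of Slfn4 from 0.57 to 199 CPM, a wider span than in Rffl, Nle1 or Ap2b1.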

How the data were processed

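The labels give a flow sort time of 5 h, and libraries were made with the SMART-Seq v4 and Nextera XT kits. The authors aligned paired-end reads with OSA to mm10 and deposited estimated counts per gene (Ensembl R83), rounded here to whole numbers, and a second table of log2(TPM + 1) values after quantile normalization. The authors tested with DESeq2. Lines sharing a symbol were summed. Each pair of groups was fitted in edgeR 4.0.16 (R 4.3.3) by quasi-likelihood, with TMM factors, filterByExpr (minimum count 10, total 15) and Benjamini-Hochberg adjustment over all genes tested, and called at an adjusted p under 0.05. The fits were tested on simulated data, drawn with the same dispersion for every gene and no effects of single libraries. Such data cannot show how the fits behave with the stray libraries described above. Alternatives, among them DESeq2 1.42.0 and limma 3.58.1 (run on the log2 values), stand in the closing section. The 7 members and the gene lists were chosen with earlier results of these data known. The text names all members, other Slfn symbols, genes inside or beside the cluster, the 3 most correlated genes per member, core interferon genes and, per list, genes among the 3 largest called differences. Older symbols in the counts (E330016A19Rik for Mb21d1, Emr1, Chi3l3, Igj) were matched through a RefSeq gene table. Promoter windows came from RefSeq, GRCm38.p6, and all 7 members matched. Coordinates came from the GENCODE vM21 annotation. Same-numbered Sham libraries of different populations deviated together (r 0.201 to 0.647). They were taken as paired only in the fits with the replicate block, and the main fits included no pairing. For numbers 1 and 2 a library of another number correlated more closely in 3 of 6 pairs, and only number 3, rich in tubule RNA, stood apart. RAS libraries (0.053 to 0.505) share only a number. Counting intervals cover counting error only. Values of some genes that this rule names are not reported here. The non-macrophage CD45-positive sort was not used here.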

Additional observations from a re-analysis of the deposited data

Results flagged for a closer look

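In CD11chi RAS, 3 levels stood far from the rest of their group by Dixon's test, out of 21 groups of 4 libraries examined, where chance flags about 1 in 20. All were the highest values of CD11chi RAS replicate 1, at 35.93 CPM for Slfn1, 17.54 CPM for Slfn4 and 100.11 CPM for Slfn8. That library also held the most T and NK cell markers of its group, 360 CPM, and the most neutrophil markers, 341 CPM, and their part was not tested.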

How the results depend on the processing

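When each library was left out in turn, the number of called members stayed between 5 and 6 for KRM against CD11clo in Sham, and at 0 for RAS against Sham in CD11chi and CD11clo and for the other 2 interactions. The ranges were 0 to 2 for KRM against CD11chi and for CD11chi against CD11clo in Sham, 0 to 1, 0 to 5 and 0 to 4 for KRM against CD11chi, KRM against CD11clo and CD11chi against CD11clo in RAS, 0 to 3 for RAS against Sham in KRM and 0 to 1 for the KRM and CD11clo interaction. KRM against CD11chi in Sham gave 0 called with limma, with a minimum of 10 counts per library, with scaling by total library size, without a filter and when all 6 groups shared a fit, and 2 without the third Sham libraries. A single fit over all groups gave 3 for KRM against CD11clo and 2 for CD11chi against CD11clo in Sham, and 1 for KRM against CD11chi in RAS, where the fit without the RAS libraries numbered 1 (chosen after seeing the data) also gave 1. DESeq2 gave 3 for CD11chi against CD11clo in Sham and 1 for RAS against Sham in CD11clo, and the fit without the third Sham libraries gave 4 for CD11chi against CD11clo. Limma gave 2 for KRM against CD11clo in RAS, 2 for RAS against Sham in KRM and 1 for the KRM and CD11clo interaction, and without KRM RAS replicate 1 it gave 3 for each of the last 2. Without the RAS libraries numbered 1, edgeR gave 3 for RAS against Sham in KRM and 1 for that interaction. The cause was not tested. No called member changed direction in any setting, and 1474 of 1508 recomputed fold changes and all 273 recomputed levels moved by less than the spread between libraries.

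With the replicate block, KRM against CD11chi in Sham gave 0 members and 89 genes (635 without the block), CD11chi against CD11clo in Sham 2 members and 595 genes (184), and KRM against CD11chi in RAS 101 genes (1221). The block left 42 genes for RAS against Sham in KRM (1247) and 2 for the KRM and CD11clo interaction (34), and changed no other count of called members by over 1.5 times. Sham and RAS libraries of a population share only a number (r -0.196 to 0.325), so a block across them cannot test pairing. Over all genes DESeq2 called 1810 for KRM against CD11chi, 1213 for CD11chi against CD11clo in Sham, 2748, 3214 and 2052 for the RAS pairs and 3167, 189 and 107 for RAS against Sham in KRM, CD11chi and CD11clo. Limma called 670 for KRM against CD11chi in RAS and 2665 for RAS against Sham in KRM. Without the third Sham libraries edgeR called 1497 and 1898 for the Sham pairs with CD11chi, and 0 for the KRM and CD11clo interaction (34). Without the RAS libraries numbered 1 it called 4251, 4060 and 1782 for the RAS pairs, 7071 for RAS against Sham in KRM, and 1153 and 2473 for the KRM interactions with CD11chi and CD11clo. Total library size shifted the median log2 difference of all genes by 0.233 and 0.211 in KRM against CD11chi and CD11clo in RAS, and by 0.167 and 0.191 in the interactions with KRM. Depth limits Slfn3 (3 to 83 counts) and Slfn4 in KRM (1 to 20 counts).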
